A study of Homo sapiens with 12 samples.

Results

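The transcripts described here encode 9 enzymes that set the supply of deoxynucleotides, the building blocks of DNA: RRM1, RRM2, RRM2B, TYMS, TK1, TK2, DUT, DCK and SAMHD1. They were taken by symbol from a table of 62069 genes, and all 9 were present and passed the filter for expression that left 15284 genes for testing. RNA-seq was performed on IMR90 ER:RAS cells, a line of human lung fibroblasts carrying a RAS oncoprotein joined to a hormone-responsive domain of the estrogen receptor, so that the drug 4-hydroxytamoxifen (4OHT) switches RAS on and drives the cells into oncogene-induced senescence. There were 4 groups of 3 libraries. Non-induced cells stood for the state without RAS activation, Induced cells were given 100 nM 4OHT, and the groups Induced + shXPO7_3 and Induced + shXPO7_5 received the same 4OHT treatment and carried a short hairpin RNA against XPO7, an exportin of the nuclear transport receptor family. All groups carry the ER:RAS transgene, and by the methods of the study the Non-induced and Induced cells carry a control vector in place of the hairpin. All groups were taken at day 5 after induction, at passage 13, from cultures of 7 days. Nothing in the sources used here says whether the 3 libraries of a group, which carry letters as names, came from separate cultures, and p-values therefore cover no more than library-to-library spread, possibly technical.

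Ribonucleotide reductase makes deoxynucleotides from ribonucleotides. It pairs a large subunit, RRM1, which holds the active and regulatory sites, with a small subunit that is either RRM2, made in S phase and degraded through cyclin F and the anaphase-promoting complex, or RRM2B, a form that serves cells outside S phase. TYMS methylates dUMP to dTMP and takes the carbon from folate, while DUT hydrolyses dUTP to dUMP and so keeps uracil out of DNA. TK1 (cytosolic, rising in S phase) and TK2 (mitochondrial) phosphorylate thymidine, DCK phosphorylates deoxycytidine and purine deoxynucleosides, and SAMHD1 breaks deoxynucleotides down to nucleosides. A shortage of deoxynucleotides is known to accompany and to limit proliferation after RAS activation in fibroblasts. Bulk RNA cannot tell fewer cells in S phase from less transcript per cell.

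Genes of DNA synthesis are textbook targets of E2F factors, of NF-Y at CCAAT boxes and of complexes that bind the CHR element. The bases before the gene starts are therefore shown for the members that were lower in Induced than in Non-induced cells. They are also shown for SAMHD1, whose libraries overlapped between those groups. Letters searched on both strands as E2F-type were TTCCCGC as well as TTCGCGC as well as TTGCCGC as well as TTGGCGC. The letters for NF-Y were CCAAT and those for the CHR element were TTTGAA. Of 35116 promoters in the RefSeq table, 10.9% held an E2F-type match in the 250 bases before the start, 32.0% held CCAAT and 13.3% held TTTGAA. RefSeq (GRCh38.p14) gave 13 starts for 8 of the members. At least 1 start had an E2F-type match for RRM1, RRM2, TYMS, TK1, DUT and DCK, and no start had a match for TK2 or SAMHD1. The share over all promoters is per start, so members with more starts (4 for DUT, 2 for RRM2 and TK1) had more chances of a match. That of RRM2, at chr2:10122376-10122382, lay before its upstream start and is not shown. Each sequence reads 5′ to 3′ on the strand of the gene with the matched letters, or their reverse complement, in capitals. Where an annotated transcript reaches into the stretch, only up to 30 bases around the match are given. Before the downstream of its 2 starts, RRM2 had 3 CCAAT matches, at chr2:10122606-10122630, chr2:10122636-10122660 and chr2:10122663-10122687 on the plus strand, and the 3 windows shared a run of 15 bases, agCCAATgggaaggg.
RRM2 distal: caaggcgcagCCAATgggaagggtc
RRM2 middle: catggcacagCCAATgggaagggcc
RRM2 proximal: ggcaccaaagCCAATgggaagggcc
TK1 had 2 CCAAT matches as reverse complements and an E2F-type match before 1 of its 2 starts, at chr17:78187115-78187139, chr17:78187084-78187108 and chr17:78187053-78187074 on the minus strand.
TK1 distal: ccgggcgctgATTGGccccatggcg
TK1 middle: ccggctcgtgATTGGccagcacgcc
TK1 proximal: agcggtcggcGCGGGAAccagg
TYMS (chr18:657604-657630, plus strand) had 1 E2F-type match, DUT (chr15:48332151-48332180, plus strand) had 2 before 1 of its 4 starts, with 2 TTTGAA matches farther from that start (129 and 214 bases before it), and DCK (chr4:70993447-70993473 and chr4:70993551-70993577, plus strand) had 2.
TYMS: cgggacggccGCGGGAAaaggcgcgcg
DUT: gctgGCGGGAAatttcggttTTGGCGCgct
DCK distal: ccggaacctcTTCCCGCgccctgcccg
DCK proximal: gagcgcgcacGCGGGAAcccgcgctgg
RRM1 (chr11:4094435-4094684, plus strand), shown over all 250 bases, held 1 match of each kind.
RRM1: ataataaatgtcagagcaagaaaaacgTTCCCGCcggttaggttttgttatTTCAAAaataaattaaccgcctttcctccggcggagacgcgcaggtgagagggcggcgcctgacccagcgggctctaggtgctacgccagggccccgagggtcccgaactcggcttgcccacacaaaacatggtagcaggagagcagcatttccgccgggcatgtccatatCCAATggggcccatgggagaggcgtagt
SAMHD1 (chr20:36951732-36951761, minus strand) held 2 CCAAT matches and neither of the other kinds.
SAMHD1: gaggCCAATaggctgCCAATactccttgga
A match of letters is a description of the sequence and shows no binding.

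Libraries held 28534141 to 60397769 counts. XPO7 stood at 126.8 to 143.8 CPM (library-scaled counts, with TMM factors) in the Induced libraries, at 26.4 to 28.7 with shXPO7_3 and at 50.8 to 54.0 with shXPO7_5. By edgeR, XPO7 fell by 2.30 (SE 0.074, adjusted p = 1.24e-08) and by 1.39 (SE 0.072, adjusted p = 3.27e-06) on the log2 scale. All 10 fibroblast markers listed passed the filter, with FN1 at 20387 to 27940 CPM, whereas 6 of 11 markers of other cell types (CD3E, CDH5, HBB, KRT5, PECAM1 and SFTPC) had 0 counts in all 12 libraries and the others, CD68, CDH1, EPCAM, PTPRC and VWF, had at most 191 counts in any library. Libraries differed in how far GC-rich transcripts stood above the Induced mean. The rank correlation (Spearman) between transcript GC content and this log2 ratio ran from -0.33 in Induced + shXPO7_3 replicate A to 0.77 in Induced + shXPO7_5 replicate B, and it was above 0.5 in 3 libraries, shXPO7_3 replicate T and shXPO7_5 replicates T and B. This touches the AT-rich transcripts of RRM2B (36.4% GC) and DCK (38.8%) and the GC-rich transcript of TK1 (62.8%). For them a fit with a GC and length offset is given for Induced against Non-induced cells and for each knockdown against Induced cells. Among the knockdown libraries RRM1 and SAMHD1 were also lowest in the 3 libraries above 0.5, and their offset values are given there.

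The comparison of Induced with Non-induced cells asks what RAS activation did to these transcripts. Most of the enzymes fell: TK1, RRM2, TYMS, DUT, RRM1 and DCK were lower, RRM2B and TK2 were higher, and SAMHD1 did not pass the test. By edgeR's quasi-likelihood test with Benjamini-Hochberg adjustment over all genes, 6 of 9 members were called lower, where 26.1% of all genes tested were, and 2 were called higher, where 24.8% were. The median log2 fold change was -1.01 over the 9 members and -0.007 over all genes. For 8 of the 9 the libraries of the groups did not overlap, which held for 63.2% of all genes. With upper-quartile scaling the median over all genes was -0.10 on the log2 scale and 38.3% of the calls were higher, against 48.8% with TMM, and the direction of each of the 8 called members was the same.

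**Figure D1:**
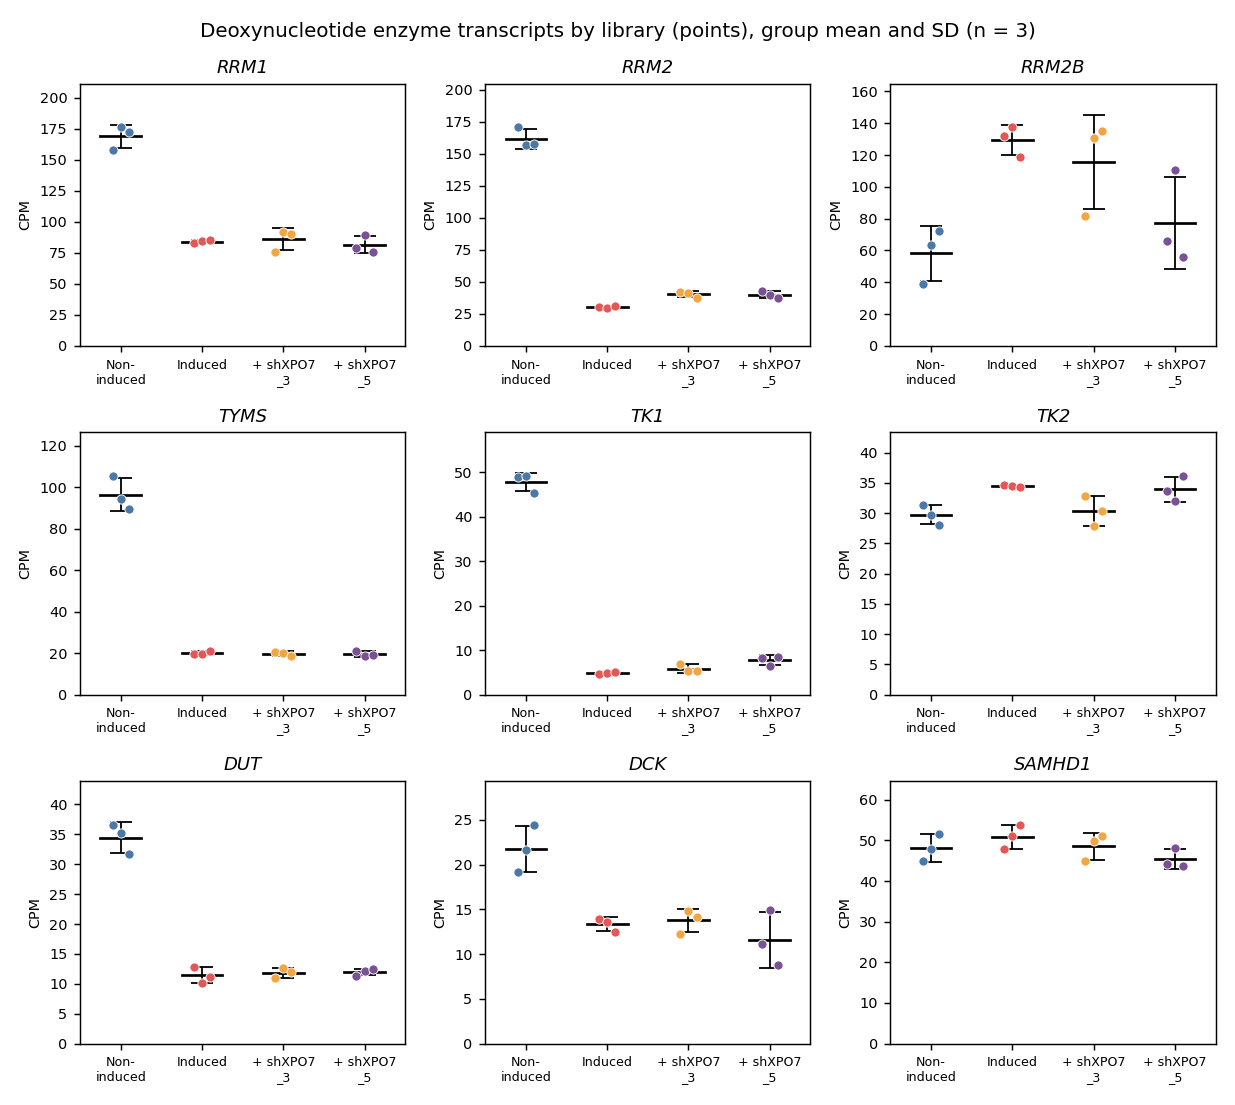
Levels of the 9 transcripts in CPM (y axis, from 0) in each library (points) of the 4 groups (x axis), with the group mean as a bar and the SD as error bars (n = 3). RRM1, RRM2, TYMS, TK1, DUT and DCK sat higher in every Non-induced library than in any library given 4OHT, RRM2B stood at 118.8 to 137.4 CPM in the Induced and at 39.0 to 72.3 CPM in the Non-induced libraries, and SAMHD1 stayed between 43.7 and 53.8 CPM throughout.

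Among the subunits of ribonucleotide reductase, RRM2 was at 170.8, 157.2 and 157.5 CPM in Non-induced replicates T, A and C and at 30.1, 30.0 and 31.5 CPM in Induced replicates T, A and B. All Induced libraries lay far below all Non-induced ones, and the mean fell 5.30-fold, from 162 ± 7.77 to 30.5 ± 0.834 CPM (SD, n = 3; log2 fold change -2.40, SE 0.078, adjusted p = 2.03e-10). RRM1 was at 158.1, 176.1 and 172.4 CPM before induction and at 82.5, 84.6 and 85.3 CPM after it. The large subunit thus fell by less, 2.01-fold (log2 fold change -1.01, SE 0.088, adjusted p = 1.30e-06). RRM2B went the other way, from 39.0, 63.3 and 72.3 CPM to 131.9, 137.4 and 118.8 CPM. The groups did not overlap, and the mean rose to 222% of the Non-induced mean (log2 fold change 1.15, SE 0.28, adjusted p = 0.00407). With the GC and length offset its fold change was 1.07 on the log2 scale (adjusted p = 8.97e-07), so the AT-rich transcript was higher in that fit too.

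Set per length of exon, the large subunit stood above the S phase small subunit before induction, at 40.4 ± 2.27 CPM per kb for RRM1 against 30.4 ± 1.46 for RRM2, with RRM2B at 10.5 ± 3.10. In Induced cells the order of the small subunits was turned, with RRM2B at 23.3 ± 1.72, RRM1 at 20.1 ± 0.342 and RRM2 at 5.74 ± 0.157 CPM per kb. RRM2B made up 18.0, 27.9 and 30.6% of the summed small-subunit level in the Non-induced libraries and 80.8, 81.5 and 78.4% in the Induced ones. Every Induced library had mostly RRM2B and every Non-induced library mostly RRM2. Within libraries, where scaling plays no part, the log2 ratio of RRM2B to RRM2 rose by 3.60 and that of RRM2 to RRM1 dropped by 1.40 (exact two-sided permutation test on 3 against 3 libraries, p = 0.1 for each, the smallest the design allows). The sum of the small subunits was 40.9 ± 1.76 CPM per kb before and 29.1 ± 1.56 after induction.

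Of the enzymes of thymidylate supply, TYMS was at 105.4, 94.5 and 89.6 CPM in Non-induced cells and at 19.5, 19.8 and 21.2 CPM in Induced cells. The mean fell 4.79-fold (log2 fold change -2.26, SE 0.088, adjusted p = 8.07e-10), and no library of one group came near the other. DUT, which makes the substrate of TYMS, was at 36.6, 35.2 and 31.6 CPM before and at 12.8, 10.2 and 11.2 CPM after induction. Its fall of 3.02-fold (log2 fold change -1.59, SE 0.10, adjusted p = 6.35e-08) lay between those of TYMS and RRM1. TK1 showed the largest fall of the 9, from 48.9, 49.1 and 45.3 CPM to 4.59, 4.78 and 5.06 CPM. This was 9.92-fold (log2 fold change -3.31, SE 0.13, adjusted p = 8.07e-10), on 135 to 251 counts in the Induced libraries, and -3.22 with the GC and length offset (adjusted p = 1.13e-12).

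TK2, the mitochondrial counterpart, was at 31.3, 29.7 and 28.1 CPM in Non-induced and at 34.7, 34.5 and 34.3 CPM in Induced libraries. The small rise (log2 fold change 0.21, SE 0.080, adjusted p = 0.0400) stood just inside the threshold and passed it under 6 of 16 alternatives, with an adjusted p of up to 0.352. Per kb, TK1 was above TK2 before induction (25.7 ± 1.13 against 4.15 ± 0.225 CPM per kb) and below it after (2.59 ± 0.128 against 4.81 ± 0.027). The log2 ratio of TK1 to TK2 fell by 3.53 (exact permutation p = 0.1), and the share of TK1 in their sum went from 86.1 ± 0.342% to 35.0 ± 1.25% (SD, n = 3).

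DCK, the salvage kinase, was at 19.2, 21.6 and 24.4 CPM before and at 14.0, 13.6 and 12.5 CPM after induction, a fall of 1.63-fold (log2 fold change -0.71, SE 0.16, adjusted p = 0.00303). With the GC and length offset its log2 fold change was -0.78 (adjusted p = 7.65e-07). SAMHD1, the hydrolase, was at 44.8, 47.9 and 51.6 CPM in Non-induced and at 47.8, 51.0 and 53.8 CPM in Induced libraries. These ranges overlapped, and the log2 fold change of 0.08 had a 95% interval from -0.10 to 0.26 (adjusted p = 0.440). Against RRM2 in the same library, SAMHD1 per kb rose by 2.49 on the log2 scale (exact permutation p = 0.1).

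**Figure D2:**
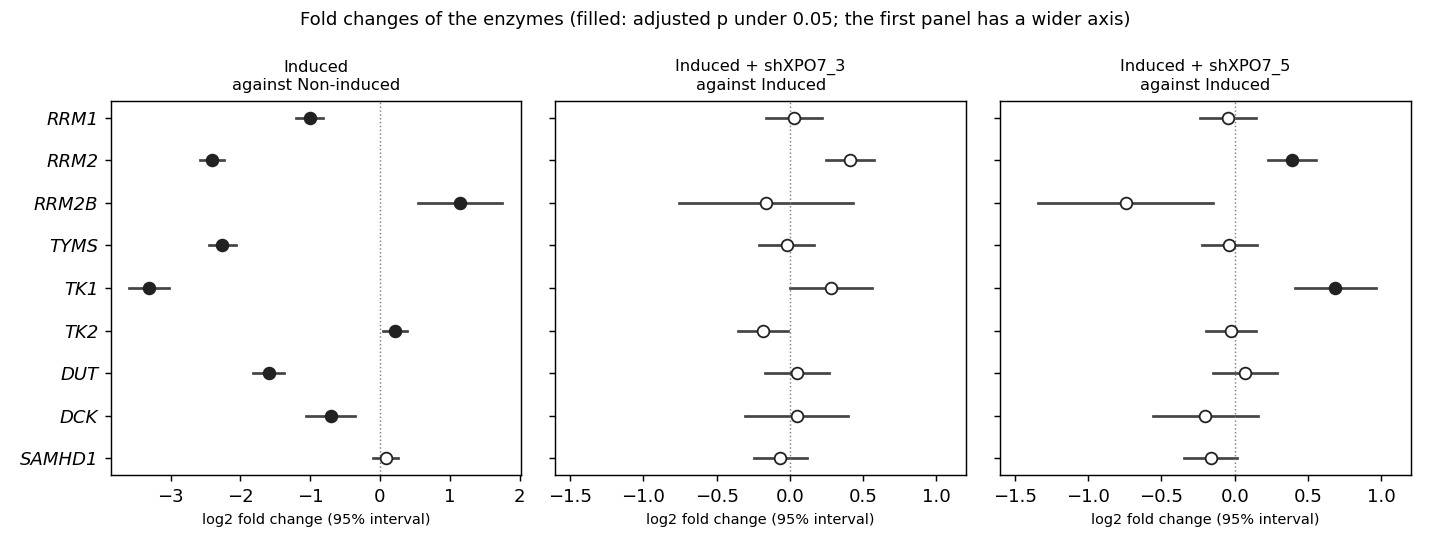
Log2 fold change (x axis) of each transcript with its 95% interval in 3 comparisons, filled points marking an adjusted p under 0.05 and the first panel having a wider axis. After RAS induction TK1 was lowest at -3.31 and RRM2B highest at 1.15, and in the knockdowns only RRM2 and TK1 with shXPO7_5 were called, at 0.39 and 0.69.

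Other genes of the pathway were counted by list, beside 26.1% of all genes called lower and 24.8% called higher. Of 16 nucleotide kinases and deaminases, 4 were lower, 1 was higher and 11 did not pass the test (median log2 fold change -0.06), shares at or under those of all genes. DTYMK, which phosphorylates dTMP on the way to dTTP, fell by 0.90 on the log2 scale (SE 0.11, adjusted p = 2.67e-05), at 32.2 to 36.5 CPM in Non-induced and 17.5 to 19.4 CPM in Induced libraries, while NME1, a nucleoside diphosphate kinase, was higher by 0.39 (SE 0.10, adjusted p = 0.00701) and NME6 lower by 0.28 (SE 0.11, adjusted p = 0.0434). Of 10 genes of the folate cycle that serves TYMS, 6 were lower and 3 higher. The cytosolic serine hydroxymethyltransferase SHMT1 fell by 1.63 (SE 0.14, adjusted p = 1.14e-06). The mitochondrial folate enzymes MTHFD2L and MTHFD2 were higher, by 0.97 (SE 0.12, adjusted p = 2.52e-05) and 0.62 (SE 0.071, adjusted p = 1.50e-05).

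Among 13 tested genes of pool cleaning and nucleoside breakdown, 7 were lower and 4 higher (median -0.33). UPP1, a uridine phosphorylase, rose from 9.01 to 9.21 CPM to 56.5 to 59.5 CPM, a log2 fold change of 2.69 (SE 0.081, adjusted p = 1.14e-10). PNP, the purine nucleoside phosphorylase, was higher by 1.25 (SE 0.095, adjusted p = 3.55e-07), the surface 5′-nucleotidase NT5E by 0.89 (SE 0.12, adjusted p = 4.20e-05), and NUDT1, which removes oxidized purine nucleotides, fell by 0.80 (SE 0.13, adjusted p = 0.000311). Of 19 genes of purine and pyrimidine synthesis, 7 were lower, 4 higher and 8 not called, with a median of -0.05. PRPS1 fell by 0.86 (SE 0.077), DHODH by 0.63 (SE 0.16) and PFAS by 0.60 (SE 0.10), and the CTP synthase CTPS1 was higher by 0.56 (SE 0.095), each with an adjusted p of at most 0.00492. Of the 4 tested nucleoside transporters, 3 were lower, SLC29A1 by 0.75 (SE 0.094, adjusted p = 3.17e-05).

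Of 16 regulators of these genes, 8 were lower, where 26.1% of all genes were, and 4 were higher, a share near the 24.8% of all genes. Among the E2F factors, the activator E2F1 fell by 1.35 (SE 0.11, adjusted p = 8.78e-07) and the atypical repressor E2F8 fell by 3.07 (SE 0.20, adjusted p = 7.72e-08), from 4.70 to 5.27 CPM down to 0.545 to 0.638 CPM. E2F7, the other atypical repressor, rose from 42.7 to 46.1 CPM to 182 to 189 CPM (log2 fold change 2.06, SE 0.077, adjusted p = 6.01e-10). CCNF, whose product targets RRM2 for degradation, fell by 1.39 (SE 0.12, adjusted p = 1.08e-06), CDK1 by 2.67 (SE 0.25, adjusted p = 2.08e-06) and the pocket protein gene RBL1 by 2.04 (SE 0.21, adjusted p = 6.11e-06). CDKN1A, which encodes an inhibitor of cyclin-dependent kinases, was higher by 1.19 (SE 0.094, adjusted p = 5.06e-07). The proliferation genes MKI67 (by 3.30, SE 0.096), CCNA2 (by 2.67, SE 0.11), MCM2 (by 2.13, SE 0.11) and PCNA (by 0.67, SE 0.064) were all lower, each with an adjusted p of at most 2.98e-06, and the part of this fall in that of the enzymes was not tested. Of the 10 fibroblast markers, 5 were lower, COL1A2 by 1.16 (SE 0.087), S100A4 by 1.05 (SE 0.15), THY1 by 0.67 (SE 0.094), COL1A1 by 0.45 (SE 0.13), with COL3A1 the fifth, named after its value was seen.

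The comparisons of each hairpin with Induced cells ask what XPO7 knockdown did to these transcripts under RAS. Both share the 3 Induced libraries, so their values are not independent. RRM2 was higher in all 6 knockdown libraries than in any Induced library: 42.5, 41.6 and 37.8 CPM with shXPO7_3 and 43.0, 39.5 and 37.6 CPM with shXPO7_5, against at most 31.5 CPM. The log2 fold change was 0.41 with shXPO7_3 (SE 0.075, 95% interval 0.25 to 0.58, adjusted p = 0.0751, not called) and 0.39 with shXPO7_5 (SE 0.076, 95% interval 0.22 to 0.55, adjusted p = 0.0451, called higher). These levels were 25.1% and 24.7% of the Non-induced mean, where Induced cells had 18.9%. RRM2 is of middling GC content (45.8%), and the GC and length offset left its fold changes at 0.43 and 0.43 with adjusted p of 0.00258 and 0.00226. TK1 was at 6.94, 5.25 and 5.39 CPM with shXPO7_3 and at 8.15, 6.55 and 8.57 CPM with shXPO7_5, again above every Induced library, at most 5.06 CPM. Its log2 fold change was 0.28 (SE 0.13, adjusted p = 0.770) with shXPO7_3, or 0.14 without shXPO7_3 replicate T, and 0.69 (SE 0.13, adjusted p = 0.0357, called higher) with shXPO7_5, on 217 to 314 counts in the latter. With that offset the value for the GC-rich TK1 transcript was 0.25 (adjusted p = 0.165) and 0.47 (adjusted p = 0.00954).

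With shXPO7_3 no member was called, where 0.124% of all genes were. DESeq2 called 1 member, RRM2, beside 88 of all genes. At an unadjusted p under 0.05 there were 3 of the 9 members, RRM2, TK1 and TK2, beside 979 of 15284 genes tested. The groups did not overlap for these 3 members, against 14.6% of all genes. With shXPO7_5, 2 members were called higher, where 0.478% of all genes were, and none lower, where 0.111% were. DESeq2 called 2 members, beside 426 of all genes. Unadjusted, 3 of the 9 members had a p under 0.05, RRM2, TK1 and RRM2B, beside 3302 of 15284 genes tested. The groups did not overlap for these 3 members, against 26.8% of all genes. Neither call held when any Induced library, shXPO7_5 replicate T or shXPO7_5 replicate B was left out. In each of those fits 0 members were called, and only 2 to 14 of all genes were, against 90 with all libraries. With shXPO7_5 replicate A left out 4 members were called, beside 3634 of all genes. The adjusted p over 16 alternatives reached 0.513 for RRM2 and for TK1, while the fold changes stayed above 0, at 0.34 to 0.44 and at 0.44 to 0.80.

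RRM2B was at 81.4, 130.5 and 134.9 CPM with shXPO7_3 and at 65.9, 110.3 and 55.8 CPM with shXPO7_5, against 118.8 to 137.4 CPM in Induced cells. All shXPO7_5 libraries lay below the Induced ones, but neither fold change passed the test: -0.16 (SE 0.27, 95% interval -0.75 to 0.43, adjusted p = 0.999) and -0.74 (SE 0.27, 95% interval -1.34 to -0.14, adjusted p = 0.191). The 3 lowest knockdown libraries, at 81.4, 65.9 and 55.8 CPM, were those with the steepest GC trend, 0.57, 0.60 and 0.77, and the other 3, at 110.3 to 134.9 CPM, had trends of -0.33 to 0.11. Among the Non-induced libraries too, RRM2B was lowest, at 39.0 CPM, where the trend was highest, at 0.30. With the GC and length offset the fold change of RRM2B was -0.16 with shXPO7_3 (adjusted p = 0.544) and with shXPO7_5 was -0.42 (adjusted p = 0.0426), and without the 3 libraries of steepest trend, an alternative chosen after their trend was seen, the latter was -0.23, from 1 remaining library that is assumed to vary like the other groups, and was not called. The AT-rich DCK transcript was at 12.3, 14.8 and 14.2 CPM with shXPO7_3 and at 11.1, 14.9 and 8.79 CPM with shXPO7_5, lowest in the same 3 libraries, and its log2 fold changes of 0.05 and -0.20 did not pass the test. With the offset they were 0.08 and 0.09 (adjusted p = 0.768 and 0.517), so that the sign with shXPO7_5 was turned.

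**Figure D3:**
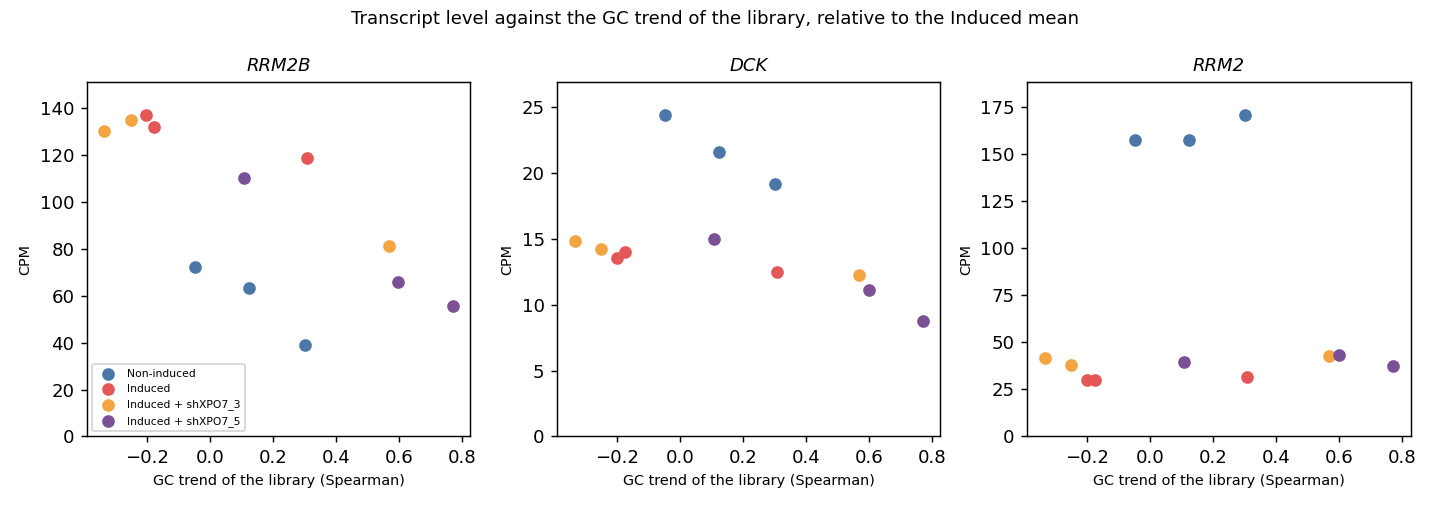
Level in CPM (y axis, from 0) of RRM2B, DCK and RRM2 in each library (points, coloured by group) against the GC trend of the library (x axis, the Spearman correlation across genes of the log2 ratio to the Induced mean with transcript GC content). RRM2B and DCK were lowest within each knockdown group in the libraries at 0.57, 0.60 and 0.77, whereas RRM2 in those 3 libraries, at 42.5, 43.0 and 37.6 CPM, stood beside 37.8 to 41.6 CPM in the other 3 knockdown libraries.

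TYMS, DUT, RRM1 and SAMHD1 did not pass the test in either knockdown and their libraries overlapped with the Induced ones. TYMS was at 18.6 to 20.7 CPM with shXPO7_3 and 18.7 to 21.3 CPM with shXPO7_5, with log2 fold changes of -0.02 (95% interval -0.21 to 0.16) and -0.04 (95% interval -0.22 to 0.15). DUT stood at 10.9 to 12.6 and 11.4 to 12.4 CPM, with changes of 0.05 (95% interval -0.17 to 0.27) and 0.07 (95% interval -0.15 to 0.29). RRM1 was at 75.6 to 91.8 and 75.9 to 89.2 CPM, with changes of 0.03 (95% interval -0.16 to 0.22) and -0.05 (95% interval -0.24 to 0.14). SAMHD1 was at 44.9 to 51.2 and 43.7 to 48.2 CPM, with changes of -0.07 (95% interval -0.25 to 0.11) and -0.16 (95% interval -0.34 to 0.02). In the knockdown libraries of steepest GC trend RRM1 was at 75.6 to 79.2 CPM and SAMHD1 at 43.7 to 44.9 CPM. The other knockdown libraries had 89.2 to 91.8 and 48.2 to 51.2 CPM. With the GC and length offset the changes were 0.06 and 0.09 for RRM1 and -0.05 and -0.05 for SAMHD1, none of them called. TK2 differed by -0.18 (95% interval -0.36 to -0.01, adjusted p = 0.725) with shXPO7_3 and by -0.02 (95% interval -0.20 to 0.15, adjusted p = 0.850) with shXPO7_5. Within libraries, the log2 ratio of RRM2 to RRM1 was higher than in Induced cells by 0.39 and 0.44, that of TK1 to TK2 by 0.46 and 0.71, and that of RRM2B to RRM2 lower by 0.61 and 1.19, and no knockdown library overlapped with an Induced one in any of these (exact permutation p = 0.1 each). RRM2B made up 64.8, 75.0 and 77.4% of the small-subunit level with shXPO7_3 and 59.5, 72.8 and 58.8% with shXPO7_5, the lower values again in the libraries of steep GC trend. The knockdown libraries of steep trend also had the highest RRM2 to RRM1 ratios per kb, 0.388 to 0.441 against 0.330 to 0.356 in the others. Their TK1 to TK2 ratios were 0.814 to 0.931 against 0.684 to 0.791. A ratio within a library keeps the GC trend, and none was fitted with the offset.

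Among the proliferation genes, MKI67 was at 34.7 to 36.5 CPM with shXPO7_3 and 32.2 to 38.9 CPM with shXPO7_5, against 25.5 to 30.3 CPM in Induced cells, log2 fold changes of 0.38 (SE 0.089, adjusted p = 0.167) and 0.37 (SE 0.090, adjusted p = 0.0855), which DESeq2 called in both. With TMM factors and no offset, none of the 4 proliferation genes, 10 folate-cycle genes, 16 kinases and deaminases or 16 regulators was called in either knockdown. With the GC and length offset MKI67 (0.38 and 0.37) and CCNA2 (0.24 and 0.35) were called higher with shXPO7_3 and shXPO7_5, and with shXPO7_5 MCM2 was called higher (0.26, adjusted p = 0.0421, also by DESeq2) and CDKN1A lower (-0.29 against -0.12 without the offset, adjusted p = 0.00078). The fibroblast marker PDGFRB was called higher with shXPO7_5 (0.58, SE 0.10, adjusted p = 0.0256), an example named after its value was seen. The median log2 fold change of the 9 members was 0.03 with shXPO7_3 and -0.04 with shXPO7_5, beside -0.003 and 0.006 over all genes.

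Compared directly, shXPO7_5 against shXPO7_3, no member was called, where 0.0131% of all genes were, and DESeq2 called none, beside 27 of all genes. Unadjusted, 1 of the 9 members, TK1, had a p under 0.05, beside 1819 of 15284 genes tested, a similar share. The libraries of the hairpins overlapped for all 9, whereas 9.71% of all genes did not overlap. RRM2 differed by -0.02 on the log2 scale with a 95% interval from -0.19 to 0.14, and TK1 by 0.41 (95% interval 0.14 to 0.68, adjusted p = 0.388), or 0.22 (adjusted p = 0.363) with the GC and length offset. RRM2B differed by -0.58 (95% interval -1.18 to 0.02, adjusted p = 0.388), an interval that holds a wide range of differences.

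Against Non-induced cells, the knockdown groups kept the falls of induction. With shXPO7_3, 6 members were lower, where 26.2% of all genes were, and 1 was higher, where 24.5% were. The log2 fold changes were -3.03 for TK1, -2.28 for TYMS, -1.99 for RRM2, -1.54 for DUT, -0.98 for RRM1 and -0.66 for DCK, each with an adjusted p of at most 0.00449, and 0.99 for RRM2B (SE 0.28, adjusted p = 0.00977). With shXPO7_5, 6 were lower, where 27.0% of all genes were, and none was higher, where 25.3% were. TK1 was at -2.62, TYMS at -2.29, RRM2 at -2.02, DUT at -1.52, RRM1 at -1.05 and DCK at -0.91 on the log2 scale, each with an adjusted p of at most 0.00056. RRM2B in shXPO7_5 cells was not called against Non-induced cells at 0.41 (SE 0.27, adjusted p = 0.235) but was at 0.65 (adjusted p = 9.82e-05) with the GC and length offset. Leaving out 1 library gave 0.069 (without shXPO7_5 replicate A) to 0.60 (without Non-induced replicate C), with 0.19 without Non-induced replicate T, none of them called. In both knockdown groups RRM2B was still the larger part of the small-subunit level in every library, and TK2 per kb was above TK1. Both orders rest on annotated exon lengths, which need not be those of the transcripts expressed.

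The transcripts whose log2 CPM followed RRM2 most closely over the 12 libraries, among 10560 candidates whose mean log2 CPM was 2 or more, were CDC45, CCNB1, CCNB2, CLDN11 and PTTG1 (Pearson r of 0.996 to 0.997), of which CDC45 and the cyclins serve replication and mitosis. For RRM2B they were MRPL19, MAP4K3, KIAA0232, SUCO and ATP6V1C1 (r of 0.993 to 0.995), with a transcript GC content of 38.3 to 42.2%, where the median of the candidates was 47.5%. For SAMHD1, which varied little, r was lower, 0.906 to 0.911, with ZNF880, RNF19A, AP3B1, TTC8 and C6orf120. These values are descriptions over libraries that share the group means and the GC trend.

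By the GENCODE release 29 annotation of GRCh38, to which the table was matched by gene identifier because it was counted on GRCh37, RRM1 (ENSG00000167325) lies on chromosome 11 from 4094707 to 4138876, RRM2 (ENSG00000171848) on 2 from 10120698 to 10131419, TYMS (ENSG00000176890) on 18 from 657604 to 673578, TK1 (ENSG00000167900) on 17 from 78174075 to 78187233 and TK2 (ENSG00000166548) on 16 from 66508003 to 66552544. DUT (ENSG00000128951) lies on 15 from 48331011 to 48343373, DCK (ENSG00000156136) on 4 from 70992538 to 71030914, SAMHD1 (ENSG00000101347) on 20 from 36889773 to 36951901 and RRM2B (ENSG00000048392) on 8 from 102204502 to 102239118. TYMS shares 967 exon bases with ENOSF1 on the opposite strand, which had 3944 counts over all libraries where TYMS had 17264. RRM2 shares 1077 exon bases with AC007240.1 on its own strand, a gene absent from the deposited counts. DCK shares 199 exon bases with MOB1B on its own strand, which had 24702 counts where DCK had 6813. No source used here gives the strand setting of the counting, so part of the TYMS counts could belong to ENOSF1. How reads in the stretch that DCK shares were assigned is not known. As AC007240.1 has no entry, reads from it in the shared stretch could stand under RRM2. Processed pseudogenes of DUT, RRM2 and TYMS in the table had at most 68 counts over all libraries.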

How the data were processed

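RNA-seq was performed on IMR90 ER:RAS cells in 12 libraries (4 groups of 3), mapped to groups by their labels. Per the submitters' processing notes, the authors used CASAVA 1.8.4, TopHat2 2.0.11 and featureCounts 1.18.0 with the builds hg19 and GRCh37, and they deposited raw read counts per gene, not normalized. No source used here gives the annotation or the strand setting. The 92 spike-in entries held 0 counts and were left out. Of 62069 genes, 49517 had a symbol, and these held 99.49% of the counts. Depth was 28534141 to 60397769 counts per library.

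The counts were fitted in edgeR 4.0.16 (R 4.3.3) with TMM factors, a filter on low counts that left 15284 genes, and the quasi-likelihood test over all 12 libraries, with Benjamini-Hochberg adjustment over all genes and a threshold of 0.05. CPM are counts scaled to library size with the TMM factors, and per kb values divide them by the length of the exon union in GENCODE release 29. This union need not be the transcript expressed, so orders and shares between genes depend on it. Log2 ratios within a library were taken of counts per kb with 0.01 added and were compared by exact two-sided permutation of 3 against 3 libraries. Alternatives were DESeq2 1.42.0, upper-quartile factors, other filters, fits on the compared groups alone, a replicate block, an offset for transcript GC content and length (known for 97.25% of genes), and leaving out libraries. The fit was tested on data simulated without a GC trend of the libraries, so that test does not cover the effect of such a trend.

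Beside the 9 members, the genes named were XPO7, E2F1, E2F7, E2F8, CCNF, CDKN1A, MKI67, PCNA, up to 4 called genes per list with the largest change in Induced against Non-induced cells and a mean log2 CPM of 2 or more, and the 5 genes most correlated with RRM2, RRM2B and SAMHD1. Some genes that this rule names are not reported here. The members and lists were chosen with earlier results of these data known.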

Additional observations from a re-analysis of the deposited data

How the results depend on the processing

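Of 54 member fold changes, 23 were called, and under the 16 alternatives per comparison none of these changed sign. The call was lost under some alternative for 3 of them, TK2 in Induced against Non-induced cells and RRM2 and TK1 in shXPO7_5 against Induced cells, and, of the other named genes in Induced against Non-induced cells, for NME1 and NME6. The call of XPO7 between the hairpins (0.92) was lost in the fit to the compared groups (adjusted p = 0.114) and without the 3 libraries of steepest GC trend (adjusted p = 0.0746). None of the 24 log2 ratios moved by 1 SD or more. The alternatives used for them could not move a ratio that far, so this shows nothing about their stability. Depth limits TK1 most, at 135 counts in its shallowest library. The cause of the changes below was not tested.

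Genes called in shXPO7_3 against Induced cells (19) were 8 with upper-quartile factors, 30 without a filter, 342 with the GC and length offset, 398 with that offset and a replicate block, 2 in a fit to the compared groups alone, 88 by DESeq2 and 1 to 1 leaving out a library. Members called there (0) were 2 with the offset, 1 with the offset and block and 1 by DESeq2. In shXPO7_5 against Induced cells the 90 genes were 217 without a filter, 149 with the block, 497 with the offset, 941 with both, 10 in the fit to the compared groups, 426 by DESeq2, 1 without the 3 libraries of steepest GC trend (chosen after seeing the data) and 2 to 3634 leaving out a library, the highest without shXPO7_5 replicate A. The 2 members were 0 with upper-quartile factors, in the fit to the compared groups and without those 3 libraries, and 0 to 4 leaving out a library. Between the hairpins the 2 genes were 20 without a filter, 40 with the offset, 52 with offset and block, 0 in the fit to the compared groups, 27 by DESeq2, 0 without the 3 libraries and 1 to 4 leaving out a library.

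The replicate letters were checked for pairing. Deviations of same-letter libraries correlated at -0.68 to 0.88 over 15 pairs (median 0.35, 10 of them above 0.1), and those of different-letter libraries had a median of -0.33 (16 of 39 above 0.1). Not every same-letter pair was above 0.1 and no source says what the letters mark, so the fits without the block were kept as the main ones, and a pairing is not excluded. With a replicate block, TK2 in Induced against Non-induced cells lost its call (adjusted p = 0.137) and RRM2B in shXPO7_5 against Non-induced cells gained one (0.63, adjusted p = 0.0382).

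Some fold changes changed sign, none of them called in the main fit. In Induced against Non-induced cells SAMHD1 was -0.015 with upper-quartile factors, and XPO7 was -0.077 with those factors, -0.0070 with a filter of 1 CPM, -0.014 with the block and -0.011 to 0.078 leaving out a library. In shXPO7_3 against Induced cells RRM2B was 0.038 without the 3 libraries, and leaving out a library gave RRM1 -0.023 to 0.11, RRM2B -0.29 to 0.031, TYMS -0.059 to 0.022, DUT -0.021 to 0.14 and DCK -0.0096 to 0.11. In shXPO7_5 against Induced cells RRM1 was 0.0023 with upper-quartile factors, 0.088 with the offset, 0.088 with offset and block, 0.085 without the 3 libraries and -0.12 to 0.0044 leaving out a library. TYMS was 0.015 with upper-quartile factors and -0.094 to 0.0055 leaving out a library, and TK2 was 0.028 and -0.070 to 0.019. DCK, at -0.20 in the main fit, was 0.092 with the offset, 0.089 with offset and block and 0.17 without the 3 libraries. Leaving out a library gave DCK -0.43 to -0.030, and 1 of 16 alternatives called it lower. Between the hairpins RRM2 was 0.024 with upper-quartile factors, 0.00025 with offset and block and -0.075 to 0.029 leaving out a library, TYMS was 0.033 with upper-quartile factors and -0.072 to 0.023, RRM1 was 0.026 with the offset and 0.027 with offset and block, and SAMHD1 was 0.0011 with both. DCK there was 0.014 with the offset, 0.0098 with offset and block and 0.045 without the 3 libraries, and DUT was -0.0073 without them and -0.027 to 0.069 leaving out a library. The log2 ratio of RRM2 to RRM1 ran from -0.037 to 0.17 and that of SAMHD1 to RRM2 from -0.16 to 0.014. In shXPO7_3 against Non-induced cells TK2 was -0.063 with upper-quartile factors, -0.024 with the block, -0.014 without the 3 libraries and -0.045 to 0.094 leaving out a library, and SAMHD1 was -0.079 with upper-quartile factors, -0.015 with the 1 CPM filter and -0.038 to 0.070. In shXPO7_5 against Non-induced cells SAMHD1 was 0.049 with the offset, 0.049 with offset and block and 0.017 without the 3 libraries.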
